A study of Sus scrofa with 48 samples.

Results

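The immediate early response genes FOS, FOSB, JUN, JUNB, EGR1, ATF3, MYC, IER2, IER3 and NR4A1 were followed in the longissimus muscle of 48 pigs. These 10 genes were chosen by name, among 11652 symbols on the array. Immediate early genes are transcribed within minutes of a stimulus, without new protein synthesis, after kinases modify transcription factors that already sit on their promoters. Most of them encode transcription factors, and their transcripts are short-lived. In skeletal muscle they are known to respond to contraction, stretch, injury, stress and growth factors.

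The pigs were purebred Large White barrows (castrated males) from a low and a high line, which had been selected in opposite directions for residual feed intake (RFI), the part of feed intake not explained by growth and maintenance. Low RFI pigs are the more efficient ones. Each line received, without restriction, one of a pair of diets, high (HF) or low (LF) in both fat and fiber, which gave 4 groups of 12 pigs, each pig on its own one-colour array. No unselected pigs were analysed here, and each line difference sets one selected line against the other. The ages of the pigs and the interval from slaughter to freezing are not given in the sources used here. The 48 arrays lay on 6 slides, each holding 2 arrays of every group, and were scanned on 2 days. The share of probes well above background went from 59.2% to 74.2% over the arrays, without saturated spots. All 9 skeletal muscle fibre markers on the array were well above background on all 48 arrays. In whole muscle, fewer cells of a type and less RNA per cell cannot be told apart.

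A probe was assigned to one of the 10 genes when the array files gave that gene's symbol as its name or in brackets in its description. This found 16 of the 60305 probes, in 8 of the 10 genes, and 13 of them exceeded background clearly on 12 or more of the 48 arrays and were tested. These 13 probes covered 5 genes, with 5 probes for FOS, 4 for MYC, 2 for NR4A1 and 1 each for EGR1 and ATF3, and all 13 were above background on all 48 arrays. The other 3 probes were not well above background often enough, namely the JUN probe O12244 on 8 arrays, the IER3 probe O4815 on 1 array and the JUNB probe O11588 on 0 arrays. FOSB and IER2 had no probe under that rule. A further 7 probes were matched through gene IDs, accessions, descriptions or sequence, of which 6 were tested, and they brought in values for JUN, IER2 and IER3. The remaining one, the FOSB probe A_72_P414133, was above background on 10 arrays and was not tested.

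The probe sequences were read from the array files and were not compared with a genome. The FOS probe A_72_P441284, the dimmest of its gene, and the MYC probe A_72_P557580 start earliest among the probes with a stated position in their transcript, and ATF3 and JUN rest on the sequences shown with them. These 4 are printed whole because the line and co-variation results turn on these genes.

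FOS A_72_P441284: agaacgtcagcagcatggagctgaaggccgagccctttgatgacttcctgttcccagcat
MYC A_72_P557580: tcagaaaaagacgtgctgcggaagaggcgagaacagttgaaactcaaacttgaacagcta
ATF3 O9433: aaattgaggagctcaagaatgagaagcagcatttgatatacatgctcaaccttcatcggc
JUN A_72_P178031: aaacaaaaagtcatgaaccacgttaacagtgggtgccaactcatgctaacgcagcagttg

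Some probes of a gene overlap and are not independent measurements. The FOS probes A_72_P205307 and A_72_P596714 share 18 bases before and 21 bases after a single extra base, and the MYC probes O12961 and A_72_P592239 share 9 bases before and 25 after one. The extra base is in capitals.

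FOS A_72_P205307: gtgaggtggtctgaaTgttctgacattaac
FOS A_72_P596714: gtgaggtggtctgaagttctgacattaac
MYC O12961: ttacgtatgAactttttctcgaatgcatga
MYC A_72_P592239: ttacgtatgactttttctcgaatgcatga

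FOS is the partner of JUN proteins in the AP-1 transcription factor. Levels here are the log2 of the processed signal minus the mean of the tested probes of the same array, so that 0 is that mean. At its brightest probe, A_72_P596714, FOS ranged in HF-fed low RFI pigs from 2.10 to 5.79 (median 3.67, mean 3.83 ± 1.01, SD, n = 12). In HF-fed high RFI pigs it ranged from 0.62 to 7.96 (median 5.73, mean 5.16 ± 2.27). In LF-fed low RFI pigs it ranged from 2.10 to 6.99 (median 5.64, mean 4.97 ± 1.65), and in LF-fed high RFI pigs from 1.55 to 8.18 (median 5.88, mean 5.64 ± 1.87).

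The 4 groups overlapped for FOS, and both the lowest and the highest pig were of the high RFI line. The mean level was lowest in HF-fed low RFI pigs, followed by LF-fed low RFI pigs, HF-fed high RFI pigs and LF-fed high RFI pigs, and none of the differences tested between these groups passed the threshold. The signal of this probe went from 408 to 75829 across the 48 pigs, and after centring the highest pig was 188-fold above the lowest. Over the 5 probes this range of the level was 168-fold to 199-fold. Of the 12 HF-fed high RFI pigs, 6 lay above the highest low RFI pig on that diet, and 0 of the 12 low RFI pigs lay below the lowest high RFI pig.

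The line difference of FOS, high RFI minus low RFI averaged over both diets, was 0.93 to 1.08 over the 5 probes with adjusted p between 0.106 and 0.194, by limma with Benjamini-Hochberg adjustment over the 42125 tested probes. At A_72_P596714 it was 0.996 (SE 0.49), or 1.99-fold, and above 0 on 5 of 6 slides. On the HF diet it was 1.27 to 1.49 (adjusted p 0.155 to 0.257), and on the LF diet 0.58 to 0.68 (adjusted p 0.668 to 0.734). The FOS difference did not pass the threshold on either diet, and an unadjusted p at 3 of the 5 probes lay under 0.05 for the line difference. Without replicate 3 of the HF-fed high RFI pigs, the pig with the lowest FOS, the probe A_72_P441284 was called for the line difference (1.29, SE 0.43, adjusted p = 0.0344) and on the HF diet (1.91, SE 0.62, adjusted p = 0.0484).

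**Figure D1:**
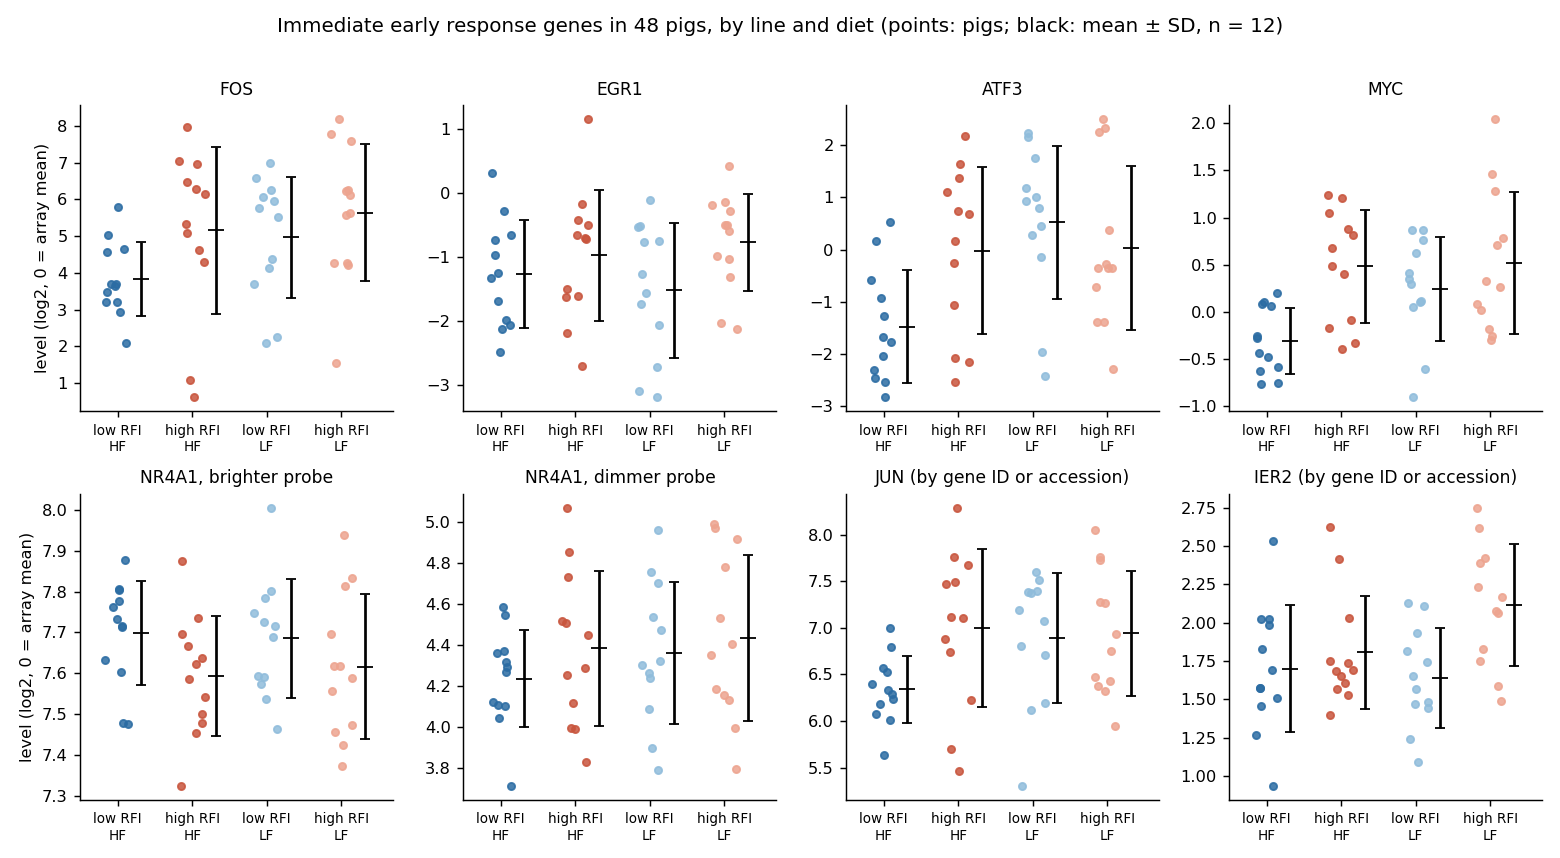
Level of each gene in every pig (log2, 0 is the array mean) in the 4 groups of 12 pigs, with the brightest probe of FOS, EGR1, ATF3 and MYC, both probes of NR4A1, and the JUN and IER2 probes matched by gene ID or accession. Points are pigs and black bars are means ± SD. HF-fed low RFI pigs lie close together for FOS, MYC and JUN (SD 1.01, 0.35 and 0.36), and the groups overlap in every panel.

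MYC, a transcription factor for growth and ribosome production, was the gene that differed between the lines. At its brightest probe, O12961, HF-fed low RFI pigs ranged from -0.76 to 0.20 (median -0.36, mean -0.31 ± 0.35, n = 12), and HF-fed high RFI pigs from -0.40 to 1.24 (median 0.58, mean 0.48 ± 0.60). On the LF diet, low RFI pigs ranged from -0.91 to 0.87 (median 0.32, mean 0.24 ± 0.55), and high RFI pigs from -0.30 to 2.04 (median 0.30, mean 0.52 ± 0.75).

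On the HF diet 8 of the 12 high RFI pigs were above the highest low RFI pig, and 6 of the 12 low RFI pigs were below the lowest high RFI pig. For LF 3 of 12 and 2 of 12 were, so that these 2 groups largely overlapped. In order of the mean, HF-fed low RFI pigs came lowest and the other 3 groups followed between 0.24 and 0.52, closer together than their SDs.

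MYC was higher in the high RFI line at 4 of its 4 probes, by 0.50 to 0.62 or 1.41-fold to 1.54-fold (adjusted p 0.00969 to 0.0249). At O12961 the difference was 0.53 (SE 0.16, adjusted p = 0.0201), and it was above 0 within each of the 6 slides (0.22 to 1.36) and on both scan days (0.37 and 0.70). On the HF diet all 4 probes were higher in high RFI pigs by 0.79 to 0.92, or 1.73-fold to 1.89-fold (adjusted p 0.0200 to 0.0321). On the LF diet the difference was 0.19 to 0.33 (adjusted p 0.530 to 0.734).

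The difference of MYC between the diets' line effects, the interaction, was 0.52 to 0.63 with an unadjusted p between 0.0554 and 0.120 and an adjusted p of 0.999, so that a larger line difference on the HF diet was not shown. At O12961 the call on the HF diet rested close to the threshold. It was lost when any of 6 pigs was left out, replicates 7 and 12 of the low RFI pigs and replicates 2, 4, 6 and 9 of the high RFI pigs on that diet (0.73 to 0.78, adjusted p 0.0510 to 0.0566), and when dim probes were kept (adjusted p 0.0654). A spot with the sequence of the MYC probe A_72_P165831, listed under an accession, gave a line difference of 0.56 (SE 0.16, adjusted p = 0.0148).

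Among the 13 probes, 4 (30.8%), all of MYC, were called for the line difference, 4 higher in the high RFI line and 0 lower, beside 16.4% of all tested probes called and 6.57% called higher. On the HF diet 4 of 13 were called, again those of MYC, beside 6.39% called and 2.36% called higher. On the LF diet 0 of 13 were called by limma, beside 2.47%. There 1 had an unadjusted p under 0.05, beside 6940 of the 42125 tested probes. The 4 called probes measure 1 transcript, so that by gene 1 of 5 was called, beside 17.8% of the 9736 named genes at their brightest probe. The median line difference over the 13 probes was 0.59, and over all tested probes -0.03. An unadjusted p under 0.05 was found for 7 of the 13 probes in the line difference, beside 13071 of the 42125 tested probes. These 7 were all probes of FOS or MYC, and the probes of 1 gene are not independent.

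**Figure D2:**
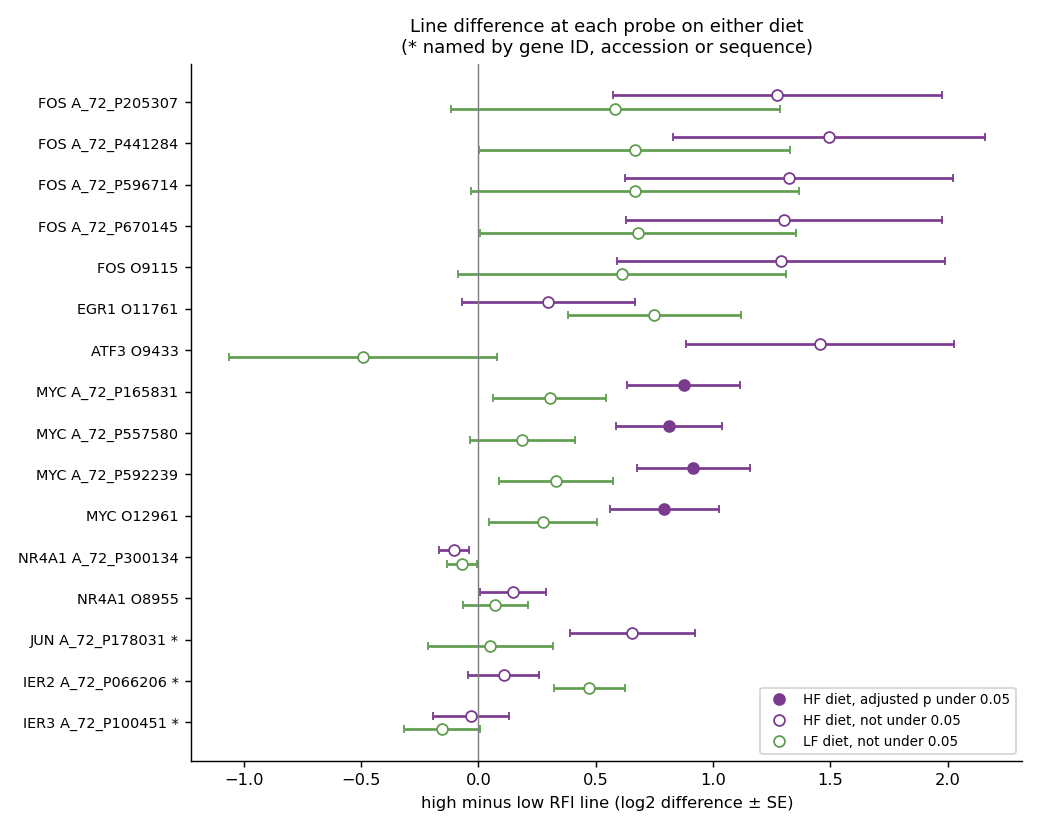
Line difference (high minus low RFI, log2 ± SE, from limma) at each of the 13 probes and at 3 further probes marked with an asterisk, on the HF diet (purple) and the LF diet (green), with 12 pigs per group. Filled points have an adjusted p under 0.05, which only the 4 MYC probes on the HF diet have, with differences of 0.79 to 0.92. FOS and ATF3 have the widest error bars (SE up to 0.70).

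ATF3, a stress-induced transcription factor that can repress its targets, had the lowest levels in HF-fed low RFI pigs. There it ranged from -2.82 to 0.53 (median -1.72, mean -1.47 ± 1.08, n = 12), against -2.53 to 2.18 (median 0.42, mean -0.02 ± 1.60) in HF-fed high RFI pigs. On the LF diet it ranged from -2.42 to 2.24 (median 0.86, mean 0.52 ± 1.46) in low RFI pigs, and from -2.29 to 2.50 (median -0.35, mean 0.03 ± 1.56) in high RFI pigs.

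Thus 6 of 12 HF-fed high RFI pigs and 7 of 12 LF-fed low RFI pigs exceeded the highest low RFI pig on the HF diet, while each pair of groups overlapped. The ATF3 line difference was 1.46 (SE 0.57, adjusted p = 0.105) on the HF diet and -0.49 (SE 0.57, adjusted p = 0.725) on the LF diet. The interaction was 1.95 (SE 0.81, unadjusted p = 0.0199, adjusted p = 0.999). HF minus LF diet, the difference was -1.99 (SE 0.57, adjusted p = 0.108) in the low RFI line and -0.05 (SE 0.57, adjusted p = 0.999) in the high RFI line.

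EGR1, a zinc finger transcription factor induced through serum response factor, ranged from -2.49 to 0.31 (median -1.29, mean -1.27 ± 0.84) in low RFI pigs and from -2.70 to 1.15 (median -0.71, mean -0.97 ± 1.02) in HF-fed high RFI pigs. With LF it ranged from -3.19 to -0.11 (median -1.41, mean -1.52 ± 1.05) in low RFI pigs and from -2.13 to 0.42 (median -0.56, mean -0.77 ± 0.76) in high RFI pigs. The ranges overlapped on both diets, and 10 of 12 LF-fed high RFI pigs lay above the median of the low RFI pigs. The EGR1 line difference was 0.52 (SE 0.26, adjusted p = 0.161), with 0.30 (SE 0.37) on the HF diet and 0.75 (SE 0.37, adjusted p = 0.297) on the LF diet. The value on the HF diet was 0.11 without replicate 9 of the HF-fed high RFI pigs, 0.46 without replicate 3 of the same group and 0.19 without replicate 5 of the HF-fed low RFI pigs, and the line difference over both diets was 0.32 with normexp background correction.

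NR4A1, an orphan nuclear receptor of the immediate early class with known roles in muscle metabolism, was seen by 2 probes that did not behave alike. Their ends share 10 bases, shown in capitals in the last 30 bases of the brighter probe and the first 30 bases of the dimmer one, so that they lie next to each other.

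NR4A1 A_72_P300134: ttttttgtaagataaaccgtTTTTAACACA
NR4A1 O8955: TTTTAACACAcacaccgcccgtgctgtaaa

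At the brighter probe, A_72_P300134, the signal lay between 50058 and 77393 in all 48 pigs. Its level was 7.70 ± 0.13 and 7.59 ± 0.15 in low and high RFI pigs fed HF, and 7.69 ± 0.15 and 7.62 ± 0.18 on the LF diet (mean ± SD, n = 12). The dimmer probe, O8955, was at 4.24 ± 0.24, 4.38 ± 0.38, 4.36 ± 0.35 and 4.43 ± 0.40 in the same order of groups. The line difference was -0.09 (SE 0.04, adjusted p = 0.178) at the brighter and 0.11 (SE 0.10, adjusted p = 0.468) at the dimmer probe, so that the 2 estimates had opposite signs and neither passed the threshold, and with quantile normalization the brighter probe had 0.0013. The deviations of the 2 probes from their group means correlated at 0.50 over the 48 pigs, while those of the FOS probes of different sequence correlated at 0.989 to 0.9996 and those of the MYC probes at 0.941 to 0.982.

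Beside the NR4A1 values, the mean log2 signal of the array correlated with the brighter probe at -0.51 over the 48 pigs and the summed muscle fibre markers at 0.70. All 9 tested fibre markers share their arrays with it. Both levels have the mean of the same array subtracted, so that the centring can enter both correlations. The part of the centring and of the fibre markers in the result was not tested. With FOS these correlations were -0.05 and -0.06. A moderate part of the NR4A1 variance went with the slide, 24.6% at the brighter and 28.6% at the dimmer probe, beside 15.5% for the median tested probe. Slide differences were called for 0 of the 13 probes by limma, beside 16.4% of all tested probes called. The 2 NR4A1 probes had an unadjusted p under 0.05, as did 13507 of the 42125 tested probes.

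The 5 genes not covered above gave fewer values. JUN, the AP-1 partner of FOS, was bright at A_72_P178031, a probe matched by gene ID or accession, with signals from 12745 to 95227. HF-fed low RFI pigs ranged from 5.64 to 6.999 (median 6.31, mean 6.34 ± 0.36, n = 12) and high RFI pigs on that diet from 5.46 to 8.28 (median 7.11, mean 6.99 ± 0.85). The LF-fed pigs had means of 6.89 ± 0.70 and 6.94 ± 0.67. On the HF diet 7 of 12 high RFI pigs were above all low RFI pigs, with overlap below, and the JUN line difference on that diet was 0.66 (SE 0.27, adjusted p = 0.118). A spot with the same sequence gave 0.63 (SE 0.26, adjusted p = 0.130).

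IER2, a nuclear protein of the early response, was at 1.70 ± 0.41 and 1.81 ± 0.37 in low and high RFI pigs fed HF and at 1.64 ± 0.32 and 2.11 ± 0.40 on the LF diet. On the LF diet 6 of 12 high RFI pigs exceeded all low RFI pigs and 5 of 12 low RFI pigs lay below all high RFI pigs. The IER2 line difference was 0.29 (SE 0.11, adjusted p = 0.0543) over both diets and 0.47 (SE 0.15, adjusted p = 0.0798) on the LF diet. It missed the threshold in both.

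IER3, a stress-inducible regulator of cell survival, was represented on both strands. The probe that carries its name was above background on 1 array, and a probe that is its exact reverse complement on all 48. The 10 bases in capitals at the start of the first pair with those at the end of the second.

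IER3 O4815: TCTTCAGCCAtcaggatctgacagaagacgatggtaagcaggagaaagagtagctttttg
IER3 A_72_P100451: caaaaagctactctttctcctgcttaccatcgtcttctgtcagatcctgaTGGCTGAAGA

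At A_72_P100451 the level was between -2.77 and -2.54 in the mean of each group, and the line difference was -0.09 (SE 0.11, adjusted p = 0.617). Read as printed, A_72_P100451 has 1 reading frame without a stop codon and a stated position in its transcript (base 276), and O4815 has 0 such frames. Neither probe was compared with a genome, so which of the 2 strands carries the IER3 transcript was not settled here. The array holds 801 pairs of probes that are exact reverse complements of each other, of which 388 had 1 probe that passed the filter on dim probes and 1 that did not. JUNB and FOSB, further subunits of AP-1, gave no level, since their probes were not well above background on enough arrays. The strand that the dim JUN and JUNB probes read was not settled either.

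The HF and LF diets were compared next. None of the 13 probes was called for HF minus LF diet by limma, beside 0.42% of all tested probes called. The unadjusted p lay under 0.05 for 1, that of ATF3, and for 5513 of the 42125 tested probes. The ATF3 difference was -1.02 (SE 0.40, adjusted p = 0.246), MYC had -0.32 to -0.29 (adjusted p 0.423 to 0.460) and FOS -0.82 to -0.80 (adjusted p 0.479 to 0.519). In the low RFI line alone 0 of 13 were called, beside 0.199% of all tested probes called. There the unadjusted p lay under 0.05 for 5, ATF3 and the 4 MYC probes, beside 4902 of the 42125 tested probes. In the high RFI line 0 of 13 were called and 0 had an unadjusted p under 0.05, and of all tested probes 0% were called, with 2303 at an unadjusted p under 0.05. For the interaction 0 of 13 were called, 1 with an unadjusted p under 0.05, beside 0% and 1875 of all tested probes. The median diet difference was -0.32 over the 13 probes and 0.0019 over all tested probes, and 12 of the 13 were below 0. These 12 include 5 probes of FOS and 4 of MYC, which are not independent. They also include the brighter NR4A1 probe, at -0.0053 (SE 0.04).

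The spread between pigs of the same group was wide for several of these genes. The SD within groups was 1.76 for FOS and 1.44 for ATF3, beside a median of 0.258 over the 42125 tested probes, and 99.8% and 99.5% of tested probes had a smaller SD. EGR1 followed with 0.93 (97.8%), then JUN with 0.67 (93.4%), MYC with 0.58 (89.8%), IER3 with 0.41 (76.3%) and IER2 with 0.38 (72.7%). The NR4A1 probes had 0.15 (10.4%) and 0.35 (68.4%). These ranks describe the genes and were not tested.

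Spots of the same sequence differed by less than pigs did. They correlated at 0.9996 for FOS, 0.999 for JUN and 0.989 for MYC, and the SD of their difference was 0.06, 0.03 and 0.09 on the log2 scale. Among 1000 probes of the most similar mean signal, 99.8% had a smaller SD than FOS, 99.6% than ATF3 and 98.0% than EGR1. Line and diet together took 26.2% to 29.9% of the variance of the MYC probes, 22.6% of ATF3, 12.5% to 16.2% of FOS and 9.36% of EGR1, beside a median of 9.71% over all tested probes.

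**Figure D3:**
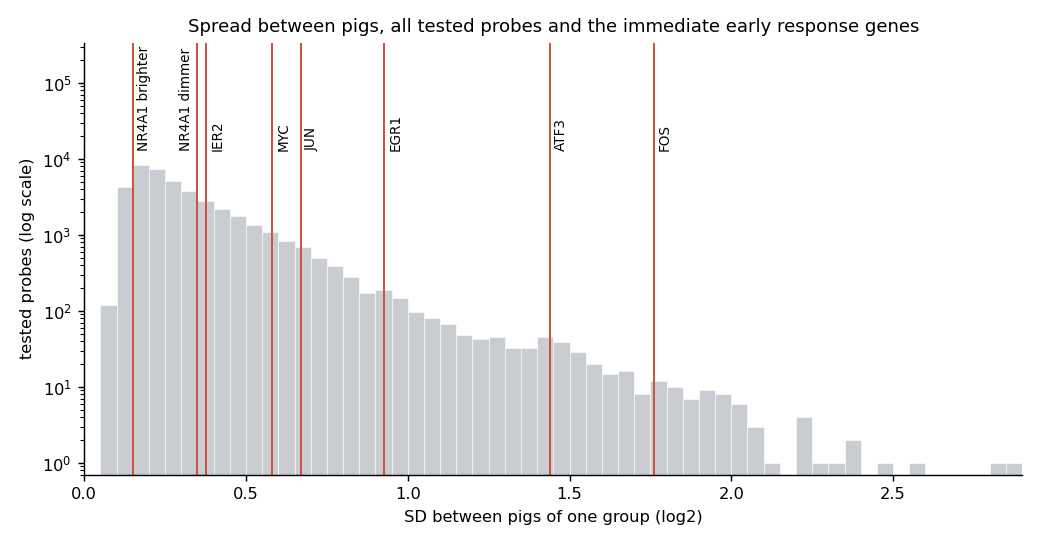
Number of tested probes (log axis) by the SD between pigs of one group (log2), pooled over the 4 groups of 12, with vertical lines at the brightest probe of each gene and at the dimmer NR4A1 probe. FOS (1.76), ATF3 (1.44) and EGR1 (0.93) lie in the right tail, MYC (0.58) and JUN (0.67) in its shoulder, and the brighter NR4A1 probe (0.15) at the left.

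It was then asked whether the same pigs were high for several genes. For this, each pig's deviation from its group mean was correlated between the brightest probes of the 5 genes with a tested probe, over 48 pigs and 10 pairs, with two-sided permutation tests of 100000 permutations and Benjamini-Hochberg adjustment. ATF3 and MYC were closest, with Pearson's r = 0.79 (p = 1e-05, the smallest the permutations can give, adjusted p = 0.0001) and Spearman's rho = 0.76 (p = 1e-05). FOS followed with ATF3 (r = 0.58, permutation p = 4e-05, rho = 0.65, permutation p = 1e-05), with MYC (r = 0.57, permutation p = 5e-05, rho = 0.61, permutation p = 2e-05) and with EGR1 (r = 0.51, permutation p = 0.00022, rho = 0.44, permutation p = 0.00204).

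EGR1 and MYC had r = 0.41 (permutation p = 0.00439, adjusted p = 0.00878, rho = 0.40, permutation p = 0.00513). In all, 7 of the 10 pairs had an adjusted p under 0.05 for r and 6 for rho. Without the 2 pigs farthest from the median of the first gene, 5 pairs kept r beyond the threshold, with 0.75 for ATF3 and MYC, 0.71 for FOS and ATF3, 0.62 for FOS and MYC, 0.41 for FOS and EGR1 and 0.42 for EGR1 and MYC. The pairs of EGR1 with ATF3 (r = 0.33, adjusted p = 0.0298) and of MYC with NR4A1 (r = 0.34, adjusted p = 0.0298) were no longer called without those pigs, with r of 0.30 (adjusted p = 0.0776) and 0.23 (adjusted p = 0.138), and each lost its call under 3 of 6 alternatives, with r of 0.28 to 0.33 and 0.15 to 0.57.

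Within the scan days of 24 pigs each, r for ATF3 and MYC was 0.75 and 0.85, for FOS and ATF3 0.47 and 0.65, for FOS and MYC 0.44 and 0.73, for FOS and EGR1 0.42 and 0.57, and for EGR1 and MYC 0.46 and 0.42. With slide as well as group means removed, r for ATF3 and MYC was 0.81. Within each of the 4 groups of 12 pigs, ATF3 and MYC had r between 0.66 and 0.93, and FOS and ATF3 between 0.54 and 0.63. FOS and MYC had 0.40 to 0.72, and FOS and EGR1 0.45 to 0.59. EGR1 with MYC varied more, with 0.32 and 0.02 in HF-fed low and high RFI pigs and 0.84 and 0.48 in LF-fed ones. EGR1 with ATF3 went from -0.02 in LF-fed high RFI pigs to 0.67 in LF-fed low RFI pigs. These differences between groups were not tested.

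The remaining pairs involved NR4A1, and there the probe decided the value. The brighter probe had r = 0.21 with FOS (permutation p = 0.157), 0.29 with ATF3 (permutation p = 0.0436, adjusted p = 0.0545) and -0.03 with EGR1 (permutation p = 0.818). The dimmer probe had r = 0.73 with FOS (permutation p = 1e-05), 0.64 with ATF3 (permutation p = 1e-05), 0.57 with MYC and 0.22 with EGR1. The dimmer probe was chosen for this after the 2 had been seen to differ.

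With JUN, IER2 and IER3 added, 14 of 28 pairs had an adjusted p under 0.05. FOS and JUN had the highest r of these pairs, 0.90 (permutation p = 1e-05, adjusted p = 5.6e-05, rho = 0.87), with 0.85 and 0.95 on the 2 scan days. EGR1 and IER2 had 0.74, ATF3 and JUN 0.71 and MYC and JUN 0.65, each with a permutation p of 1e-05 and with rho of 0.74, 0.78 and 0.70. IER3 had no pair beyond the threshold, its r ranging from -0.17 with IER2 to 0.29 with MYC. Without the 2 pigs farthest from the median 12 of the 28 pairs were called, among them MYC and IER3 (r = 0.35, permutation p = 0.0169, adjusted p = 0.0393), and with slide as well as group means removed 11 were.

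At the low end of FOS 5 pigs stood apart, with deviations of -4.54 to -2.72 from their group mean, the next pig being at -1.73. They were replicates 3 and 7 of the HF-fed high RFI pigs, replicate 8 of the LF-fed high RFI pigs, and replicates 1 and 11 of the LF-fed low RFI pigs. Without these 5 pigs, r of FOS over the other 43 was 0.84 with JUN, 0.71 with ATF3 and 0.61 with MYC (permutation p = 1e-05 for each), and 0.44 with EGR1 (permutation p = 0.00378). The relations therefore did not rest on those 5 pigs.

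**Figure D4:**
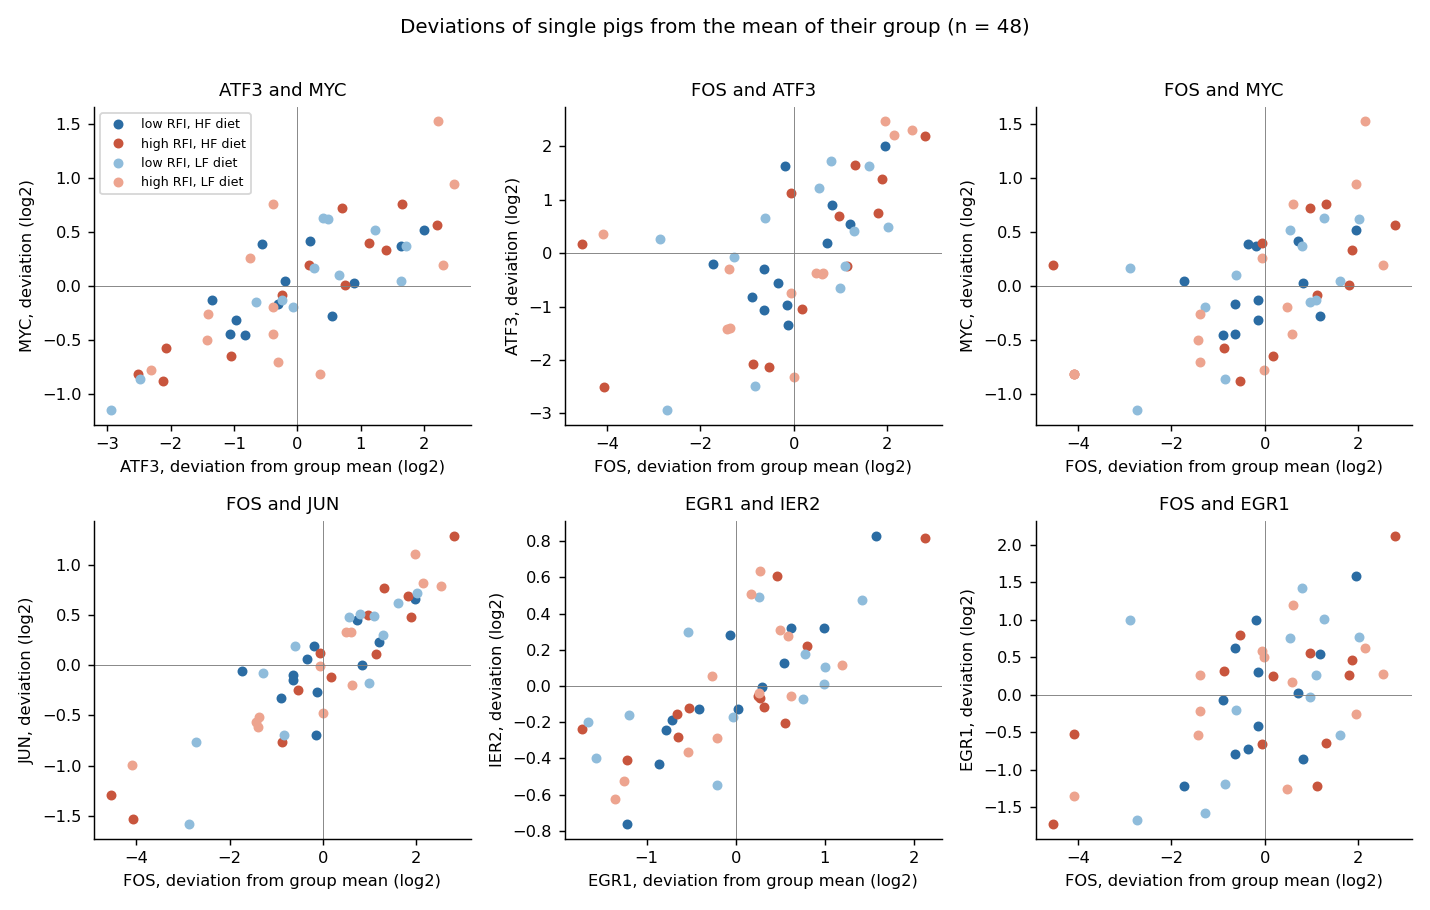
Deviation of each of the 48 pigs from its group mean (log2) at the brightest probes of 6 pairs of genes, coloured by group, with r of 0.79 for ATF3 and MYC, 0.58 for FOS and ATF3, 0.57 for FOS and MYC, 0.90 for FOS and JUN, 0.74 for EGR1 and IER2, and 0.51 for FOS and EGR1. Pigs of the 4 groups mix along each trend, and 5 pigs lie to the far left for FOS.

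At the top end, replicate 9 of the HF-fed high RFI pigs was the highest pig of its group for FOS (7.96), ATF3 (2.18), EGR1 (1.15), JUN (8.28) and IER2 (2.63) and at both NR4A1 probes, and replicate 8 of the HF-fed low RFI pigs was the highest of its group for FOS, ATF3, EGR1, MYC (O12961), JUN and IER2. Of the 12 pigs with the largest FOS deviation, 9 were also among the 12 with the largest JUN deviation, 8 for ATF3, 7 for MYC and 5 for EGR1.

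**Figure D5:**
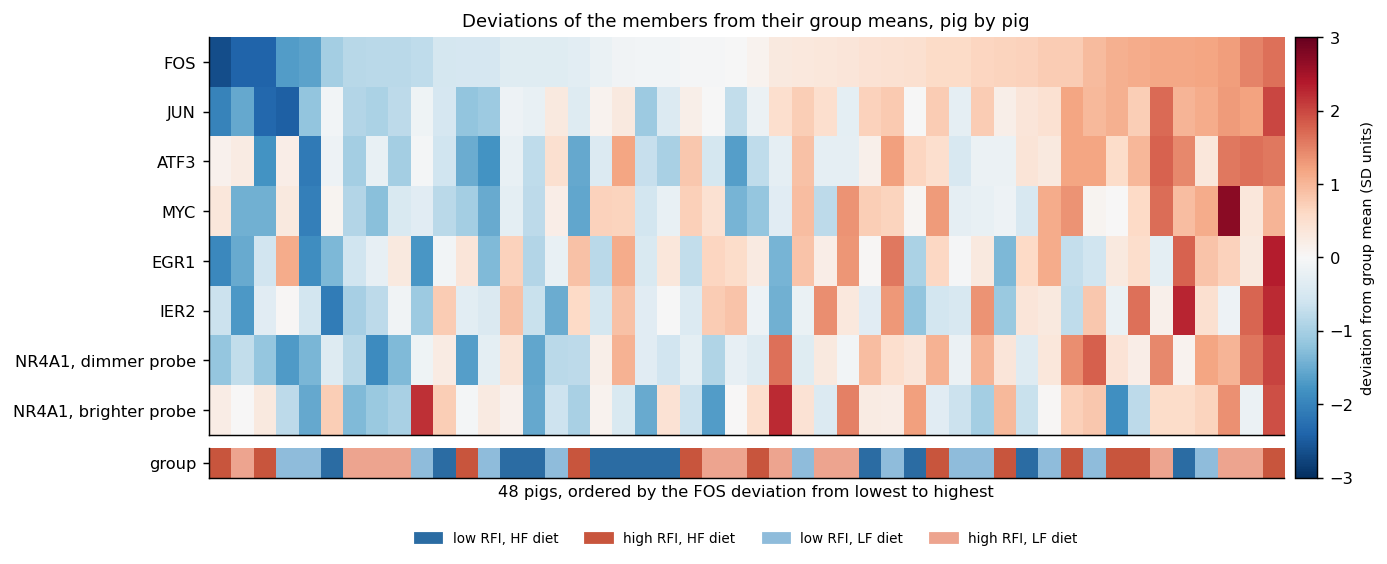
Deviation of 7 genes, NR4A1 at both probes, from the group mean in each of the 48 pigs, in units of the gene's SD (red higher, blue lower), with pigs ordered by FOS and the group of each pig in the strip below. JUN follows the order of FOS (r = 0.90), ATF3 and MYC follow it less closely (0.58 and 0.57), and the brighter NR4A1 probe follows it least of those drawn (0.21), while all 4 groups are spread along the order.

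Across the array, the deviations of the 5 genes were averaged after scaling each by its SD, and the genes most like that average over the 48 pigs were ranked among 9729 named genes. The closest were OTUD1, a deubiquitinase (r = 0.89), BTG2, an antiproliferative early response gene (0.87), CYR61, a matrix protein (0.81), DUSP1, a phosphatase of MAP kinases (0.80), and CSRNP1, a nuclear protein (0.79). RRAD, a small GTPase of muscle (0.74), TM4SF1, a membrane protein (0.72), NR4A2, a nuclear receptor related to NR4A1 (0.71), and KLF4, a zinc finger factor (0.70), were also among the closest. Of all tested probes, 413 (0.980%) had r over 0.5, and the median r was -0.0048. These values describe likeness over 48 arrays that share their hybridisation, and other probes of the same gene reached as low as 0.37 for CYR61, 0.38 for CSRNP1 and 0.15 for KLF4. Of the genes named here, RRAD was higher in high RFI pigs, by 0.49 (SE 0.15, adjusted p = 0.0179), as was KLF4, by 0.54 (SE 0.19, adjusted p = 0.0378). RRAD rests on 1 probe, and for KLF4 4 of 10 probes were called for the line difference.

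A list of 50 further early response genes, of which 43 were tested at their brightest probe, was set beside the members. For the line difference 9 of the 43 (20.9%) were higher and 1 was lower in high RFI pigs, beside 6.5% called higher among all 9736 named genes. The median difference was 0.31 for the list and -0.03 for all named genes. The higher ones included SOCS3, an inhibitor of cytokine signalling (0.85, SE 0.28, adjusted p = 0.0283), CEBPD, a transcription factor of inflammation (0.54, SE 0.14, adjusted p = 0.00448), and KLF4. GADD45B and GADD45G, stress sensors (0.51 and 0.43), and KLF10 (0.44) were higher too, with adjusted p of 0.00782, 0.0140 and 0.0370. Not every probe was called, with 2 of 3 for SOCS3, 4 of 10 for KLF4 and 3 of 5 for KLF10. MAFK, a small Maf protein, was lower, by -0.20 (SE 0.07, adjusted p = 0.0410). Among HF-fed pigs 2 of the 43 were higher in the high RFI line, beside 2.34% of named genes, NR4A3 by 1.56 (SE 0.45, adjusted p = 0.0296) and RHOB, a small GTPase, by 0.51 (SE 0.14, adjusted p = 0.0225), both chosen after their values were seen.

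For the diets 2 of the 43 were called, both lower on the HF diet, beside 0.472% of named genes called and 0.38% called lower. They were NR4A3, the nuclear receptor closest in kind to NR4A1 and NR4A2 (-1.33, SE 0.32, adjusted p = 0.0387), and FOSL1, a FOS-related AP-1 subunit (-1.31, SE 0.32, adjusted p = 0.0424). FOSL1 rests on 1 probe, which was well above background on 30 of the 48 arrays only. With normexp background correction 0 genes of the list were called for the diets and with the deposited values 1. The list's summed level correlated with FOS at 0.85, JUN at 0.84, MYC at 0.73 and ATF3 at 0.65 over the 48 pigs.

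Genes upstream of the early response were counted next. Of 18 tested kinases and transcription factors that act on early promoters, 1 was higher in the high RFI line, the kinase gene RPS6KA1 (0.41, SE 0.13, adjusted p = 0.0216), and 1 lower, the p38 kinase gene MAPK14 (-0.15, SE 0.04, adjusted p = 0.0158), beside 6.5% of named genes called higher and 11.3% called lower. For MAPK14 2 of 4 probes were called for the line difference, and RPS6KA1 rests on 1 probe. For RPS6KA3, a further kinase gene of the 18, 1 of 3 probes was called for the line difference, and its brightest was not. None of the 18 was called for the diets by limma, beside 0.472% of named genes called. For 6 of the 18 the unadjusted p lay under 0.05, as for 5513 of the 42125 tested probes.

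Other measures moved with the members over the pigs. The summed level of 9 heat shock genes correlated at 0.65 with MYC, 0.62 with ATF3, 0.50 with JUN, 0.40 with FOS and 0.04 with EGR1. The mean level of the 9 genes was 5.26 ± 0.23 in HF-fed low RFI pigs, 5.50 ± 0.39 in HF-fed high RFI pigs, 5.60 ± 0.23 in LF-fed low RFI pigs and 5.56 ± 0.39 in LF-fed high RFI pigs (SD, n = 12). By limma 0 of the 9 were called for the line over both diets, beside 17.8% of named genes, and 1 had an unadjusted p under 0.05. On the HF diet 1 was called higher in the high RFI line, beside 2.34%. It was HSPH1 (0.82, SE 0.25, adjusted p = 0.0352, 2 of its 4 probes called), chosen after its value was seen. For the diets 0 were called, beside 0.472%, and 4 had an unadjusted p under 0.05. Of the 42125 tested probes, 13071 had an unadjusted p under 0.05 for the line and 5513 for the diets. The part of the heat shock genes in the MYC and ATF3 values was not tested.

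Markers of other cell types also differed between the lines. Of 6 macrophage and leukocyte markers, 3 were higher in the high RFI line, beside 6.5% of named genes, namely CSF1R by 0.94, AIF1 by 0.43 and CD14 by 0.30 (adjusted p 0.00201, 0.0244 and 0.00916). CSF1R rests on 1 probe, which was well above background on 35 of the 48 arrays. For CD163, 1 of 7 probes was called for the line difference, and its brightest was not. Also higher were the collagen gene COL1A1 by 0.37, 1 of 4 fibroblast markers, the fatty acid carrier gene FABP4 by 0.32, 1 of 5 adipocyte markers, and the receptor gene TEK by 0.24, 1 of 5 endothelial markers (adjusted p 0.0152, 0.0309 and 0.0473). For TEK 2 of 4 probes were called. The myosin gene MYH2, 1 of 9 fibre markers, was lower, by -0.12 (adjusted p = 0.0259). By limma 0 of 2 satellite cell, 0 of 3 smooth muscle and 0 of 2 blood markers were called for the line, with 1, 1 and 0 at an unadjusted p under 0.05. The mean of the 6 macrophage and leukocyte markers ranged from -1.09 to 0.06 in low and from -0.51 to 1.22 in HF-fed high RFI pigs, and from -0.62 to 0.19 and from -0.47 to 0.66 on the LF diet. It correlated with MYC at 0.13, FOS at 0.29 and ATF3 at 0.10. The summed fibroblast, adipocyte, endothelial and fibre markers correlated with MYC at -0.02, 0.20, -0.03 and 0.25, and the blood markers HBB and ALAS2 with FOS at -0.19. The group means of the level averaged over the markers of a cell type ran from 3.13 to 3.25 for fibroblast, from 1.13 to 1.55 for adipocyte and from 1.61 to 1.72 for endothelial markers. The part of these cells in the MYC line difference was not tested.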

How the data were processed

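Longissimus muscle of 48 pigs was hybridised on Agilent 60 K one-colour arrays, 12 per line and diet. The authors deposited spot intensities from Feature Extraction 10.7.3.1, background-subtracted, and a table of log2 values for 34472 probes, centred per array, which the authors had filtered and which was used as an alternative (median correlation with the scanner values 0.9958). The genome build of the array design is not given in the sources used here.

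Control and outlier spots were removed, spots of one probe averaged, and the log2 processed signal centred per array on the mean of the 42125 tested probes, those well above background on 12 or more arrays, with 169 missing values in 168 probes. Levels of different probes are not comparable. Groups were compared with limma 3.58.1 (lmFit, eBayes) in R 4.3.3 on the 4 group means, with all pigs sharing one spread, Benjamini-Hochberg adjustment over all tested probes and a threshold of 0.05. This step was tested on simulated data. The brightest probe of a gene is its tested probe with the highest mean signal. Symbols came from the array files and gene tables for 25537 probes (42.3%).

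Correlations used deviations from group means (Python 3.11.15, scipy 1.17.1), with 100000 permutations. Named list genes were those called at any probe, at most 6 per direction by size. The members and gene lists were chosen with earlier results of these data known. Replicates are separate pigs, and their numbers were given here by the order of the samples within each group, not taken from the titles. The number of arrays limits the precision. Promoter motifs were not analysed here. One gene among those most like the members is not reported here. Alternatives covered scaling, background correction, filters, outlier spots, a slide block, the deposited values, variance estimates, an analysis of variance, probes of a gene and leaving out each pig.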

Additional observations from a re-analysis of the deposited data

How the results depend on the processing

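With scaling, background correction, filters, outlier spots, a slide block, the deposited values and the variance estimates changed in turn, 4 member probes were called for the line difference with 3 to 4 among HF-fed and 0 among LF-fed pigs. Leaving out each pig in turn gave 4 to 5, 3 to 5 and 0, the fifth being a FOS probe without replicate 3 of the HF-fed high RFI pigs. The MYC line difference at its brightest probe was 0.46 to 0.57 over these settings and single pigs and stayed called. On the HF diet it was 0.72 to 0.87 without single pigs, and not called without 6 of them.

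An analysis of variance on the 4 groups was run with each probe's own spread and without adjustment. It differs from that of the paper, which tested the line on qPCR levels. It called 6 probes for the line difference, of FOS and MYC, and 6 on the HF diet, of ATF3, FOS and MYC. For the diets it called 1 probe, that of ATF3, and for the interaction 1, again ATF3. Slide differences called 2 probes, those of NR4A1, after quantile normalization. For the diet difference of the wider early response list, 0 genes were called after normexp background correction and 1 with the deposited table. The NR4A1 line difference changed sign with quantile normalization (0.0013), and its diet difference with scaling to the 75th percentile (0.020), with probes above background on all arrays (0.0055) and with the deposited table (0.012). The correlation of EGR1 with NR4A1 changed sign with the mean of the probes (0.17) and with the dimmer probe (0.22). Leaving out single pigs gave -0.069 to 0.11 for the EGR1 and -0.018 to 0.0094 for the NR4A1 diet difference. The causes were not tested.

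No scaling moved the median difference of all probes by more than 0.1. Of the 10 pairs of members, 5 to 9 were called over 6 alternatives. No paired analysis was possible because every title carries the same replicate number. Signals near background limit JUN, JUNB and IER3 at the probes that carry their names, and FOSB at the probe matched by its description. JUN and IER3 have values only through probes found outside the naming rule. The alternatives with the dimmer NR4A1 probe, with probes found outside the naming rule, within each line, for the wider list and without the 5 pigs of low FOS were chosen after seeing the data.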
